A study of Mus musculus with 8 samples.

Results

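The genes of MHC class II antigen presentation were followed across the leukocytes and other cells of the mouse kidney after ischemia-reperfusion injury (IRI). The 7 members were taken by name from the 57010 genes of the deposited gene table: H2-Aa, H2-Ab1, H2-Eb1, Cd74, H2-DMa, H2-DMb1 and Ciita, all of which were found. Wild-type male C57BL/6 mice received vehicle (DMSO) or entospletinib, an inhibitor of the kinase SYK, before IRI of the left kidney, and kidneys were taken 1, 7 or 14 days later. Mice examined on day 1 had no further dose, while dosing went on, at first daily and later every other day, in those examined later. Controls were mice whose kidneys were left untouched, and whether they received vehicle is not given in the sources used here. In each of the 7 conditions the cells of 3 mice were pooled, live cells with leukocyte scatter were sorted and fixed, and the RNA of single cells was sequenced after combinatorial barcoding. A condition was therefore a single pool, no comparison between conditions had a replicate check, and no p-value is given.

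Class II molecules display peptides taken up from outside the cell to CD4+ T cells and are built from an alpha and a beta chain. H2-Aa and H2-Ab1 encode the chains of I-A, and H2-Eb1 encodes the beta chain of I-E, whose alpha chain gene H2-Ea is defective in the C57BL/6 strain. Cd74 encodes the invariant chain, which blocks the peptide groove and guides the new complex to the endosome. There H2-DM, made of the products of H2-DMa and H2-DMb1, exchanges the remnant of the invariant chain for peptide. Ciita encodes the class II transactivator, which does not bind DNA itself but acts through factors held at the X and Y boxes of class II promoters. Dendritic cells, B cells and macrophages are the classical class II-positive cells, and the resident macrophages of the mouse kidney are known to be rich in class II.

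Of 120281 barcodes, 79389 passed the quality limits, with 5806 to 20571 cells and a median of 960 to 2930 counts per cell in each condition. Clusters were built without the members and named from marker genes, and a class is written with "-like" for that reason. The macrophage-like class held 24143 cells, 1815 to 7512 in each condition, and its 10 macrophage markers, among them the C1q genes and Adgre1, were all detected in every condition, with a summed level of 4741 to 6483 CPM. CPM are the counts of a gene in every 1000000 counts of a class in a condition, and levels below are given in this unit from counts summed over the cells. The entospletinib day 14 pool stood apart in depth, with a median of 863 counts per macrophage-like cell against 2171 to 3855 in the other pools. Its share of predicted doublets in this class was also the lowest (0.27% against 2.68% to 17.3%). The error of a level is the SD of 8 sublibraries, which are portions of the same barcoded cells and thus measure technical spread only. A well combination seen in more than 1 sublibrary was found for 28653 barcodes, and leaving these out changed no count of members called in macrophage-like cells.

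Of the 7 members, 5, in annotation order H2-DMa, H2-DMb1, H2-Ab1, H2-Aa and H2-Eb1, lie within 197134 bases of chromosome 17 in GRCm38 (GENCODE M21). H2-DMa spans chr17:34119541-34139101, H2-DMb1 chr17:34153072-34160230, H2-Ab1 chr17:34257689-34269419 and H2-Eb1 chr17:34305867-34316674 on the plus strand, and H2-Aa spans chr17:34282744-34287823 on the minus strand. Ciita lies apart, at chr16:10480059-10528418 on the plus strand. The stretch of 210 bases upstream of the RefSeq start is shown for the chromosome 17 members with a RefSeq entry. This start matches the GENCODE start above for H2-Aa and H2-Eb1 but not for H2-DMb1 and H2-DMa. The H2-DMb1 window runs past the GENCODE start, and the H2-DMa window lies inside the GENCODE span. No link between these sequences and the changes reported below was tested. Capitals mark matches, on either strand, to AACNGATG, the core of the X box, and to GATTGG, the inverted CCAAT of the Y box, a sequence that many other promoters also carry. The windows are chr17:34287824-34288033 (minus strand), chr17:34305657-34305866 (plus strand), chr17:34152981-34153190 (plus strand) and, for the second of 2 entries of H2-DMa, chr17:34125308-34125517 (plus strand), all from RefSeq GRCm38.p6.
H2-Aa: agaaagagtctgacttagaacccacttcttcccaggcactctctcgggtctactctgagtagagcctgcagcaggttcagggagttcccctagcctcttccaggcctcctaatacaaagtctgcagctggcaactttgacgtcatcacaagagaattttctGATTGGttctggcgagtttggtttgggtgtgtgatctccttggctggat
H2-Eb1: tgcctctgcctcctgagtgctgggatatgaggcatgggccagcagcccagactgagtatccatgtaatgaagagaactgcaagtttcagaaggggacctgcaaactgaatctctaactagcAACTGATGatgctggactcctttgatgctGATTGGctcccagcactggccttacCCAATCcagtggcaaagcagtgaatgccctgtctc
H2-DMb1: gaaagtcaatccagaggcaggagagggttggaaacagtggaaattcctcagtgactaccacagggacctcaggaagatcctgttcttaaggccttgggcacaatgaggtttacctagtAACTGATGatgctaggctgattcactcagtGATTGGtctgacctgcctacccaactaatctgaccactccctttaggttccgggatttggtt
H2-DMa: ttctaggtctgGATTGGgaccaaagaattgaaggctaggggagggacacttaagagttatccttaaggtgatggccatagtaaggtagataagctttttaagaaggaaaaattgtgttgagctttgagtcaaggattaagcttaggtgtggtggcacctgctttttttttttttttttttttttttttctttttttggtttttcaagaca
In H2-Eb1 the X box core began 89 bases and the Y box 60 bases before the start, and in H2-DMb1 they began 92 and 62 bases before it. The first bases of both motifs were thus 29 and 30 bases apart. A second Y box of H2-Eb1, on the other strand, began 35 bases before the start. H2-Aa had a Y box 49 bases before the start and no match to these X box letters. H2-DMa had only a Y box, 199 bases before the RefSeq start of the entry shown, and none of these letters in the window of its other entry. Both H2-DMa windows lie inside the GENCODE span of the gene, so the sequence upstream of its GENCODE start was not examined. Among 32851 RefSeq windows of 300 bases, 2.32% held the X box core, 16.1% the Y box and 0.335% both. H2-Ab1 and Ciita had no entry.

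The sum of H2-Aa, H2-Ab1, H2-Eb1 and Cd74, called the class II core here, was ranked over the cell classes by its mean over the 7 conditions. cDC2-like cells, the conventional dendritic cells marked by Cd209a and Clec10a, had the highest core level, 12781 ± 2403 CPM (SD over conditions). cDC1-like cells (Clec9a, Xcr1) followed at 8082 ± 987 CPM, macrophage-like cells at 7490 ± 1977 CPM and Ccr7 dendritic cell-like cells at 6318 ± 1402 CPM. B cell-like cells were at 4871 ± 669 CPM. Below them stood monocyte-like (2611 ± 1343 CPM), plasmacytoid dendritic cell-like (2305 ± 514 CPM) and nonclassical monocyte-like cells (2024 ± 429 CPM). Going down this order, the step to the next class exceeded the larger of both SDs only from cDC2-like to cDC1-like, from Ccr7 dendritic cell-like to B cell-like and from B cell-like to monocyte-like cells. The background in cells that are not known to make class II was 398 ± 146 CPM in NK cell-like and 532 ± 220 CPM in neutrophil-like cells. T cell-like cells had 1538 ± 672 CPM, but 213 to 570 CPM once predicted doublets were removed. In endothelial-like cells the core was 962 ± 735 CPM and without predicted doublets 178 to 531 CPM, overlapping the T cell-like range.

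**Figure D1:**
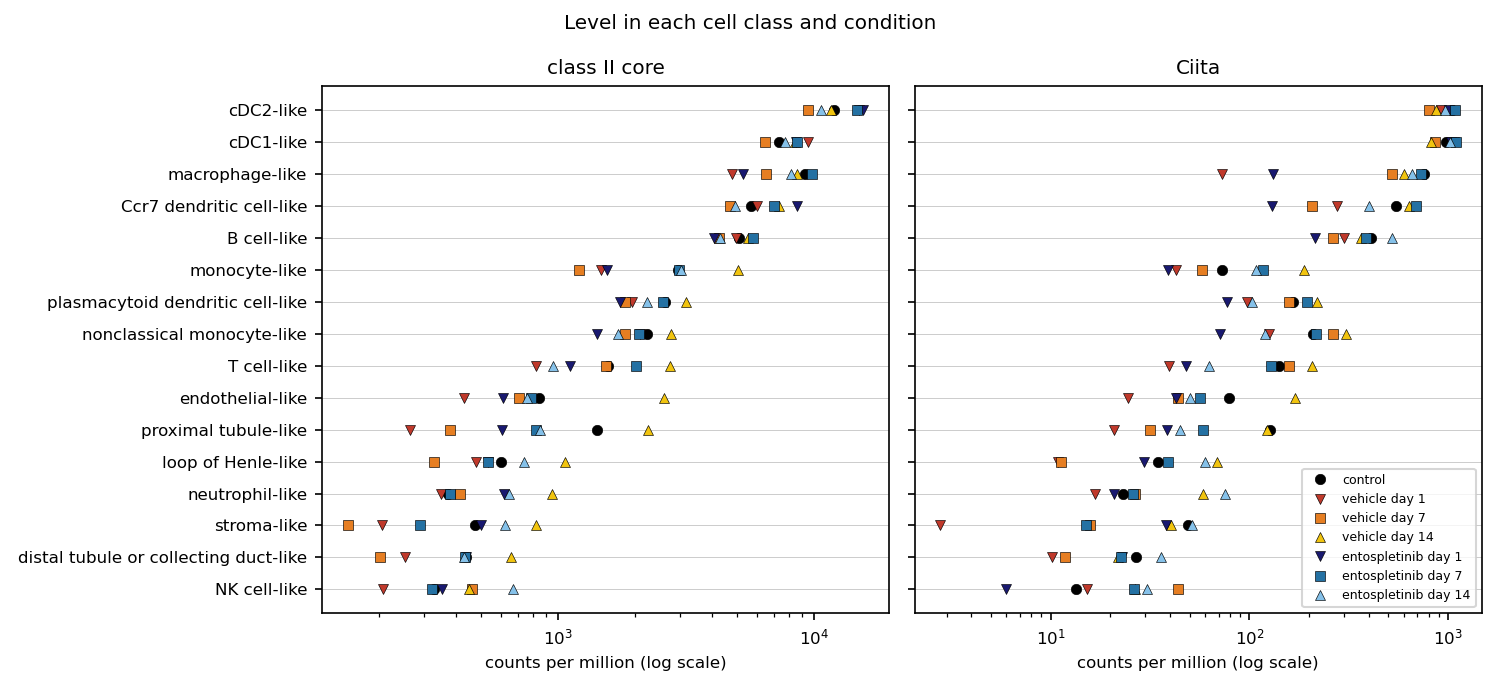
Level of the class II core and of Ciita in each cell class (vertical axis), in CPM on a log scale, with a point for each condition. cDC2-like cells have the highest core level, while the Ciita points of macrophage-like cells spread from 73.2 to 752 CPM.

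Ciita followed a similar order. It was highest in cDC1-like (980 ± 105 CPM) and cDC2-like cells (954 ± 100 CPM), which did not differ beyond their spread, and the step down to macrophage-like cells (494 ± 279 CPM) was larger than both SDs. B cell-like cells were at 351 ± 102 CPM, nonclassical monocyte-like cells at 187 CPM and monocyte-like cells at 89.3 CPM, against 23.1 CPM in NK cell-like cells. Within macrophage-like cells Ciita ran from 73.2 to 752 CPM over the pools, wider than in either of the conventional dendritic cell classes (797 to 1083 and 818 to 1096 CPM). In Ccr7 dendritic cell-like cells (412 ± 218 CPM) it ran from 129 to 687 CPM, but control gave only 42 of these cells. H2-DMa was highest in cDC1-like (91.0 CPM) and cDC2-like cells (84.0 CPM), then in macrophage-like (56.1 CPM) and B cell-like cells (42.5 CPM). For H2-DMb1 the order differed, with B cell-like cells (162 CPM) above macrophage-like cells (136 ± 53.9 CPM, so that this step is within the spread) and below cDC2-like (215 CPM) and cDC1-like cells (233 CPM). Reads of H2-DMb1 can be shared with the near-identical H2-DMb2, so its values are less certain than those of the other members. The annotated start of H2-DMa also overlaps Brd2 on the opposite strand, and whether strand was used in counting is not given in the sources used here.

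One day after IRI with vehicle, the class II genes of macrophage-like cells were lower than in control, with Ciita the furthest below it. A gene was called where its log2 ratio, relative to the median ratio of all tested genes, was at least 1 in size and had the same sign in all 8 sublibraries. By this rule 437 of 3527 tested genes (12.4%) were called on day 1, of which 202 (5.73%) were lower. Of the 7 members 5 fell: Ciita, H2-DMb1, H2-Ab1, H2-Eb1 and H2-Aa. Cd74 was lower in all 8 sublibraries but just under the size limit, and H2-DMa was not called. No other of the 3527 tested genes had a lower relative ratio than Ciita.

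**Figure D2:**
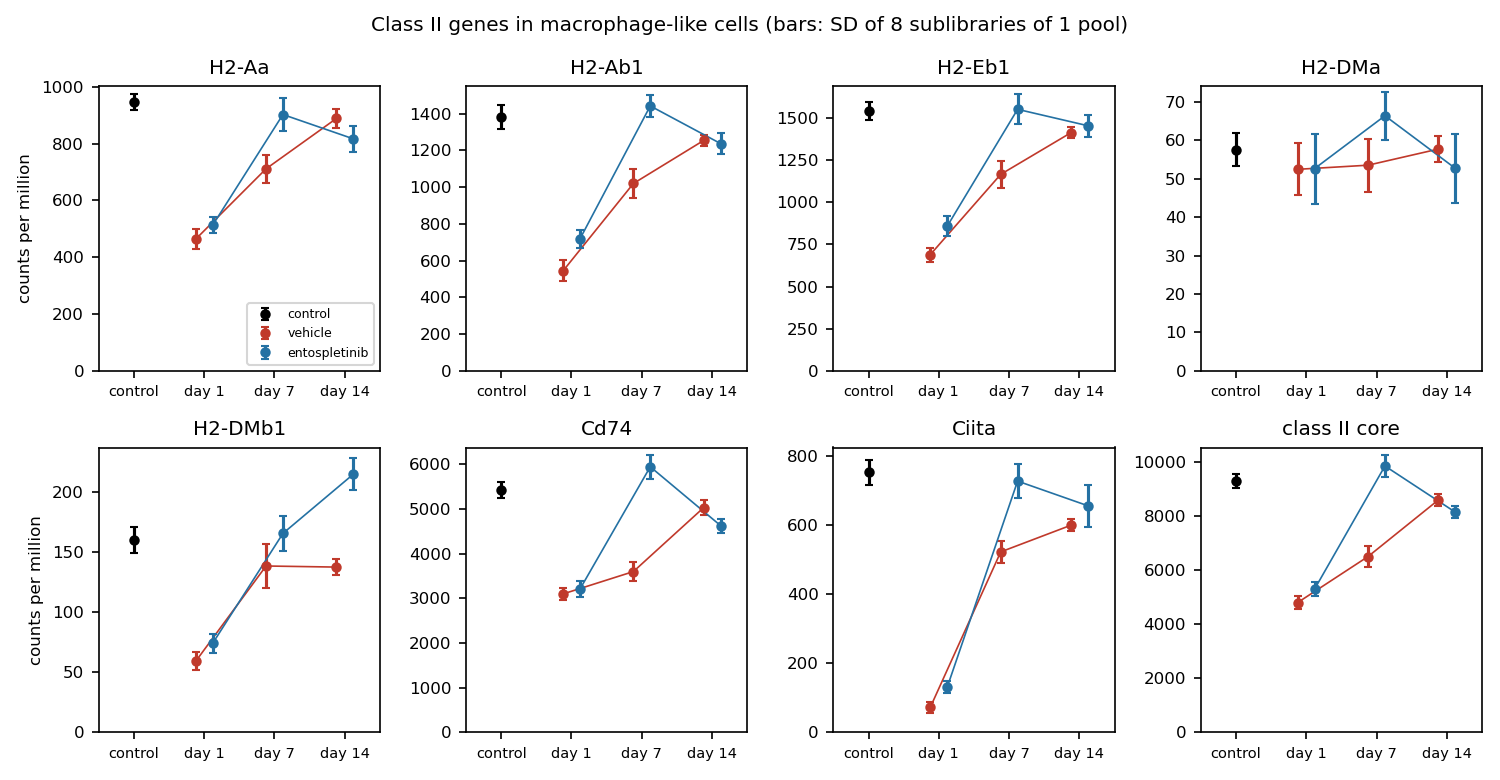
Level of each member and of the class II core in macrophage-like cells, in CPM from 0, by day (horizontal axis) and treatment (colour); bars are the SD of 8 sublibraries of a single pool. Both day 1 pools lie below control, except that the sublibraries of H2-DMa overlap, with pool values from 52.4 to 66.4 CPM.

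Ciita, the transactivator, stood at 752 ± 35.7 CPM in control macrophage-like cells (9275 counts; 95% exact Poisson interval 736 to 767). On day 1 it was 73.2 ± 16.0 CPM with vehicle (635 counts; 67.6 to 79.1) and 131 ± 18.2 CPM with entospletinib. On day 7 the values were 522 ± 30.8 CPM with vehicle and 727 ± 48.3 CPM with entospletinib, and on day 14 they were 599 ± 17.7 and 655 ± 61.0 CPM. The sublibraries of the day 1 vehicle pool, 54.4 to 103 CPM, did not overlap those of control, 703 to 793 CPM. Between control and vehicle day 1 Ciita fell 10.3-fold (log2 ratio −3.36, 95% counting interval −3.48 to −3.24), and relative to the median gene its log2 ratio was −3.51 ± 0.32. These intervals cover counting error only and not the spread between mice.

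The I-A chains fell less far than the transactivator. H2-Aa was 946 ± 29.1 CPM in control and 464 ± 34.4 CPM on day 1 with vehicle, a relative log2 ratio of −1.18. Its other pools held 512 ± 28.2 CPM (entospletinib day 1), 711 ± 49.4 and 902 ± 56.5 CPM (vehicle and entospletinib day 7), and 888 ± 32.8 and 816 ± 44.7 CPM (day 14). Thus both day 1 pools were the lowest of the 7, whatever the treatment. H2-Ab1 went from 1383 ± 63.2 CPM in control to 544 ± 57.5 CPM, 2.54-fold lower. It was 718 ± 48.1 CPM with entospletinib on day 1, 1020 ± 78.4 and 1442 ± 57.9 CPM on day 7, and 1254 ± 31.8 and 1237 ± 56.2 CPM on day 14. The beta chain gene was therefore back at or near the control level by day 14 in both arms.

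H2-Eb1, the beta chain of I-E, fell from 1541 ± 51.9 CPM in control to 690 ± 41.6 CPM on day 1 with vehicle (relative log2 ratio −1.31) and was 858 ± 59.3 CPM with entospletinib. On day 7 it stood at 1165 ± 78.3 and 1551 ± 88.7 CPM and on day 14 at 1412 ± 33.1 and 1453 ± 66.5 CPM, vehicle first. Its course ran alongside those of the I-A chains even though its partner H2-Ea gave only 3 counts of 68045115 in macrophage-like cells. Cd74, the invariant chain, was 5424 ± 178 CPM in control, 3098 ± 137 CPM on day 1 with vehicle and 3205 ± 179 CPM with entospletinib. Its later values were 3598 ± 204 and 5942 ± 269 CPM (day 7) and 5029 ± 169 and 4626 ± 158 CPM (day 14). Its relative log2 ratio on day 1 was −0.96, with all 8 sublibraries below 0, so it missed the call by size alone. When each cell was gated by its own markers, or the cluster mix was held equal, 6 members in place of 5 were called, Cd74 among them.

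The 2 genes of H2-DM, the peptide exchanger, differed from each other. H2-DMb1 fell from 160.3 ± 10.9 CPM in control to 59.2 ± 7.41 CPM on day 1 with vehicle, a relative log2 ratio of −1.59, and was 74.1 ± 7.73 CPM with entospletinib. Later it stood at 139 ± 18 and 166 ± 14.9 CPM on day 7 and 138 ± 6.76 and 215 ± 13.4 CPM on day 14. H2-DMa had 57.5 ± 4.23 CPM in control, 52.4 ± 6.77 CPM on day 1 with vehicle and 52.6 ± 9.12 CPM with entospletinib, and the sublibraries of these pools overlapped. Its later pools held 53.5 ± 6.84 and 66.4 ± 6.28 CPM on day 7 and 57.7 ± 3.35 and 52.7 ± 8.94 CPM on day 14. The alpha chain gene of H2-DM was thus the member with the flattest course, at a relative log2 ratio of −0.29 on day 1 with 7 of 8 sublibraries below 0.

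The transactivator and the genes under it were set against each other within the same cells. In control macrophage-like cells there were 8.09 Ciita counts for 100 class II core counts. On day 1 there were 1.53 ± 0.296 with vehicle and 2.48 ± 0.280 with entospletinib. By day 7 the figures were 8.04 and 7.39, and by day 14 they were 6.98 and 8.06, vehicle first. In cDC2-like cells the same figure moved only from 8.65 in control to 6.09 and 6.42 in the day 1 pools. The day 1 pools of macrophage-like cells were therefore low in Ciita beyond what the core showed. The figure was also lower on day 1 in other classes: from 9.28 to 6.01 and 5.01 in nonclassical monocyte-like cells, from 8.06 to 6.01 and 5.26 in B cell-like cells, from 9.41 to 5.70 and 6.94 in endothelial-like cells and from 13.2 to 11.2 and 12.1 in cDC1-like cells, vehicle first. In monocyte-like cells it was 2.46, 2.90 and 2.49, and in Ccr7 dendritic cell-like cells 9.61 ± 8.38, 4.58 ± 3.55 and 1.51 ± 1.14. The difference between the classes was not tested.

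Depth differed between pools, so each cell was also thinned to 500 counts and shares of cells were compared at that depth. Ciita was then found in 29.3% of control macrophage-like cells (95% Clopper-Pearson interval 27.9 to 30.7%), in 3.68% (2.92 to 4.58%) on day 1 with vehicle and in 5.23% (4.36 to 6.21%) with entospletinib. Without thinning the shares were 74.4%, 15.7% and 17.5%. T cell-like cells, taken as background, gave 3.18%, 1.36% and 2.34% at the same thinned depth, and NK cell-like cells gave 0%, 1.54% and 0.952%. The median depth was 2673, 3855 and 2171 counts in the macrophage-like cells of these pools and 2643, 3176 and 1982 counts in the T cell-like cells. Predicted doublets made up 13.5% of T cell-like cells. With them removed, Ciita on day 1 with vehicle was 71.3 CPM in macrophage-like and 9.69 CPM in T cell-like cells, the latter from 5 counts. On day 7 the macrophage-like shares were 21.2% with vehicle and 30.7% with entospletinib, and on day 14 they were 24.6% and 26.4%.

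The class II core itself stayed well above background in day 1 macrophage-like cells. After thinning, at least 1 core count was found in 96.2% of control cells, 76.8% of vehicle day 1 cells and 78.5% of entospletinib day 1 cells, against 20.5% and 15.4% of T cell-like cells in control and vehicle day 1. The median was 4 core counts per thinned cell in control and 2 in both day 1 pools, and it was 3 and 5 on day 7 with vehicle and entospletinib. At least 5 core counts were found in 48.6% of control, 16.7% of vehicle day 1 and 21% of entospletinib day 1 cells. The lower level was thus seen in the distribution over cells, and not as a loss of the signal from most of them.

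The macrophage-like class was made up of 4 clusters, and different clusters held most of it in the pools compared. Cluster 0, led by Slco2b1 and Negr1, held 76.8% of control macrophage-like cells but 12.5% of those on day 1 with vehicle. Cluster 9, led by Cd36, Mmp12 and Plau, held 6.27% of control and 76.8% of vehicle day 1 cells. Clusters 4 and 11 went from 15.3% to 4.26% and from 1.63% to 6.46%. The summed level of 8 neutrophil markers in the class also moved, from 110 CPM in control to 439 CPM on day 1 with vehicle and 337 CPM with entospletinib, while 8 monocyte markers went from 235 to 311 and 254 CPM and 9 T cell markers stayed between 5.14 and 14.99 CPM in all pools. The 6 proliferation markers went from 172 to 49.0 and 64.1 CPM and the 5 loop of Henle markers from 71.4 to 32.7 and 49.4 CPM. The part of these markers in the class II values was not tested.

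**Figure D3:**
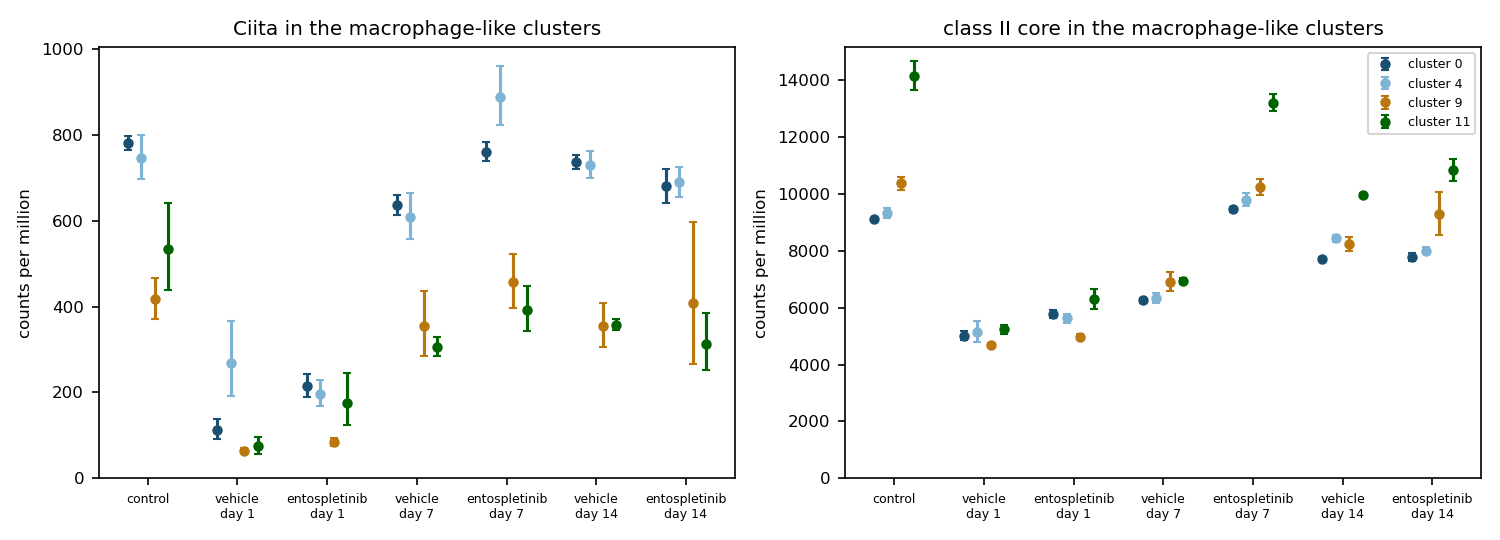
Level of the class II core and of Ciita, in CPM from 0, in the 4 macrophage-like clusters in each condition; bars are exact 95% Poisson intervals. In every cluster the day 1 pools are the lowest for the core, and Ciita on day 1 lies between 63.7 and 269 CPM against 417 to 781 CPM in control.

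Within the clusters the direction was the same. Ciita was 781 CPM in control and 113 CPM on day 1 with vehicle in cluster 0, where the call rule took 7.5% of the tested genes, and its relative log2 ratio was −3.01. In cluster 9 it was 417 and 63.7 CPM, with a relative log2 ratio of −2.91 against 5.17% of genes called. Cluster 11 went from 533 to 74.8 CPM (relative log2 ratio −3.00, 6.28% of genes called), although control gave only 64 cells there. In cluster 4, with 89 cells on day 1, the values were 746 and 269 CPM, but only 7 of 8 sublibraries had the same sign, so that Ciita was not called (5.51% of genes called). The core went from 9112 to 5016 CPM in cluster 0, from 9342 to 5152 CPM in cluster 4, from 10372 to 4707 CPM in cluster 9 and from 14153 to 5248 CPM in cluster 11. The clusters that differed in core level in control, 9112 to 14153 CPM, thus lay close together on day 1, between 4707 and 5248 CPM.

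With the cluster mix held equal in both pools, the relative log2 ratio of Ciita on day 1 was −2.73 and that of the core −1.20, against −3.51 and −1.11 for all macrophage-like cells. When each cell was gated by its own markers instead of its cluster, the values were −3.01 and −1.29. With predicted doublets removed the value for Ciita was −3.55.

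By day 7 with vehicle no member was called in macrophage-like cells, where 4.3% of 3143 tested genes were. The core was 6494 ± 381 CPM against 9293 ± 263 CPM in control. On day 7 the median gene itself was 0.30 lower on the log2 scale, so the relative log2 ratio of the core was only −0.22 (−0.35 both by single-cell gating and with an equal cluster mix), with Cd74 lowest (−0.29), then Ciita (−0.23), and H2-DMa highest (0.19). By day 14 the core was 8584 ± 231 CPM and its relative log2 ratio −0.02 (−0.23 with an equal cluster mix). The members ranged from −0.23 (Ciita) to 0.10 (H2-DMa), and none was called, with 5.2% of 3287 tested genes called. The day 1 pool was therefore the only vehicle pool in which members passed the call against control in these cells. The monocyte markers in the class summed to 810 and 792 CPM on days 7 and 14 with vehicle and to 600.5 and 367 CPM with entospletinib, against 235 CPM in control. The 7 cDC1 markers summed to 2296 CPM in control, to 2077, 1116 and 989 CPM on days 1, 7 and 14 with vehicle and to 1654, 1783 and 1318 CPM with entospletinib. None of these markers was at 0 in any pool, and their part in the comparisons was not tested.

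In conventional dendritic cells the class II chains were not lower on day 1. In cDC2-like cells (548 in control, 500 on day 1 with vehicle) the core was 12025 ± 415 CPM in control and 15106 ± 835 CPM on day 1, a relative log2 ratio of 0.17 with all 8 sublibraries above 0 (0.27 by single-cell gating). Between these pools the summed monocyte markers of the class went from 605 to 890 CPM, neutrophil markers from 60.1 to 179 CPM, Ccr7 dendritic cell markers from 86.9 to 141 CPM, cDC1 markers from 1644 to 979 CPM and proliferation markers from 501 to 95.5 CPM, and their part was not tested. H2-Aa went from 1424 to 1993 CPM, H2-Ab1 from 1922 to 2613 CPM, H2-Eb1 from 2248 to 3034 CPM and Cd74 from 6431 to 7466 CPM. H2-Aa, H2-Ab1 and H2-Eb1 were thus higher in all 8 sublibraries, by 0.27 to 0.33 in relative log2 ratio, where macrophage-like cells of the same pool had them lower by over 1, and Cd74 was at 0.06 with 6 of 8 above 0. Ciita was 1040 ± 79.4 CPM in control and 921 ± 106 CPM on day 1, a relative log2 ratio of −0.33 that was below 0 in all 8 sublibraries, the direction seen in macrophage-like cells. No member passed the call, with 7.25% of 3326 tested genes called, and the difference between both classes was not tested. The core had opposite signs in them in all 8 sublibraries.

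**Figure D4:**
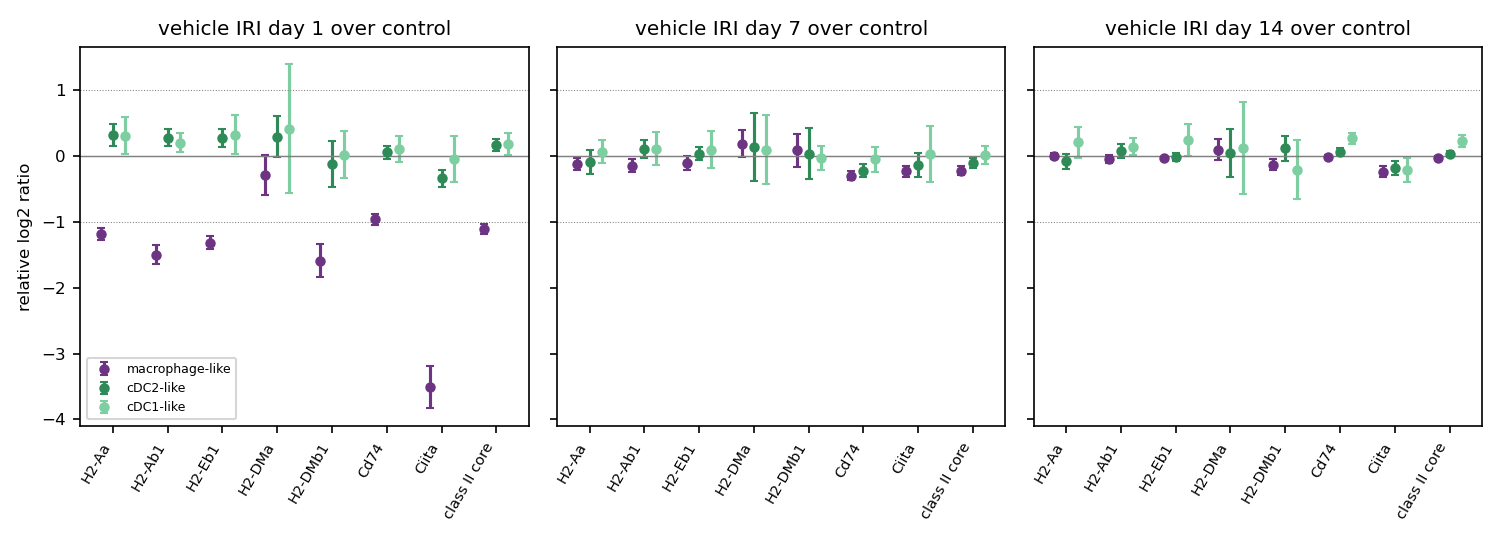
Relative log2 ratio of each member and of the core, vehicle IRI over control, on days 1, 7 and 14 in macrophage-like, cDC2-like and cDC1-like cells; bars are the SD of 8 sublibraries and dotted lines mark the limits of the call. On day 1 Ciita in macrophage-like cells lies at −3.51, while the dendritic cell values of Ciita lie at −0.33 and −0.05.

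cDC1-like cells, the cross-presenting subset, were few, with 224 in control and 117 on day 1 with vehicle. Their core was 7333 ± 328 CPM in control and 9491 ± 1012 CPM on day 1, a relative log2 ratio of 0.19 with 7 of 8 sublibraries above 0. Ciita stood at 968 ± 110 and 1064 ± 201 CPM. No member was called on any day, where 1.62%, 0.595% and 2.12% of tested genes were called for vehicle over control on days 1, 7 and 14 and 0.547%, 0.702% and 1.4% for entospletinib over vehicle. On day 7 with vehicle the core of cDC2-like cells was 9475 ± 470 CPM and on day 14 it was 11688 ± 376 CPM, with relative log2 ratios of −0.10 and 0.04 (0.11 with TMM scaling, which sets library sizes by a trimmed mean of gene ratios), and no member was called on either day (4.81% and 4.69% of tested genes).

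B cell-like cells held 4084 to 5783 CPM of the core in the 7 pools, and their Ciita ran from 215 CPM (entospletinib day 1) to 519 CPM (entospletinib day 14). In control they had 5093 ± 402 CPM of the core and 410 ± 42.1 CPM of Ciita, and on day 1 with vehicle their core was 4995 ± 661 CPM. The relative log2 ratio of Ciita on day 1 was −0.59, with 7 of 8 sublibraries below 0. No member was called in any comparison in these cells, with 2.59%, 0.991% and 1.4% of tested genes called on days 1, 7 and 14 for vehicle over control and 0.652%, 1% and 3.18% for entospletinib over vehicle. The largest gap between arms was on day 14, where the relative log2 ratio of the core was −0.43 and that of H2-DMb1 0.68, both with the same sign in all 8 sublibraries.

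Calls were also made in endothelial-, T cell-, proximal tubule- and neutrophil-like cells. In endothelial-, T cell- and proximal tubule-like cells the core values given below were lower once predicted doublets were removed. The part of doublets in the calls was not tested. The core of endothelial-like cells was 842 CPM in control, 430.1 CPM on day 1 with vehicle, and 2601 and 757 CPM on day 14 with vehicle and entospletinib. The core was called in all 3 comparisons of these pools, lower on day 1 with vehicle than in control (3.41% of tested genes called), higher on day 14 (7.8%) and lower with entospletinib on day 14 than with vehicle (6.71%). With predicted doublets removed the same pools held only 264, 187, 354 and 531 CPM, and the day 14 gap between the arms ran the other way. In T cell-like cells the core was 1567 CPM in control and 823 CPM on day 1 with vehicle, called as lower (2.68% of tested genes), and on day 14 it was 2742 CPM with vehicle and 954 CPM with entospletinib, also called as lower (4.08%). Without predicted doublets these pools held 262, 213, 539 and 570 CPM.

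Proximal tubule-like cells had 1425 CPM of the core in control, 266 CPM on day 1 and 380 CPM on day 7 with vehicle, called as lower on both days (7.11% and 2.3% of tested genes). Without predicted doublets the values were 441, 247 and 244 CPM. Between the arms the only member called there was H2-Aa on day 1, higher with entospletinib, from 47 counts against 22 (1.4% of tested genes). With vehicle it was at 23.0 CPM and was tested only through the entospletinib pool, so this call carries no weight. Ciita on day 1 with vehicle was 24.5 CPM in endothelial-like, 39.3 CPM in T cell-like and 20.9 CPM in proximal tubule-like cells, against 79.2, 142 and 127 CPM in control. It reached the tested level of 50 CPM there only through control, so its calls carry no weight. With predicted doublets removed it went from 28.1 to 16.9, from 25.1 to 9.69 and from 34.0 to 17.6 CPM in these classes, where macrophage-like cells went from 754 to 71.3 CPM. In neutrophil-like cells the core was 372 CPM in control, from 32 counts in 65 cells, and 949 CPM on day 14 with vehicle, called as higher (9.29% of tested genes). Without predicted doublets these values were 372 and 812 CPM, and no single member was called there.

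Monocyte-like cells ranged from 1211 to 5067 CPM of the core, and the day 1 pools, which held most of them, were among the lowest. The core was 2949 ± 1649 CPM in the 66 control cells, 1477 ± 134 CPM on day 1 and 1211 ± 250 CPM on day 7 with vehicle, and 5067 ± 858 CPM on day 14. With entospletinib it was 1557 ± 166, 2974 ± 1265 and 3043 ± 969 CPM. There were 3 calls among the members: Ciita rose on day 14 with vehicle over control (72.4 to 189 CPM, relative log2 ratio 1.43, 2.54% of genes called), Cd74 was higher with entospletinib on day 7 (692 to 1895 CPM, 1.08, 5.73% called), and H2-Ab1 was lower with entospletinib on day 14 (773 to 371 CPM, −1.15, 1.56% called). These rest on pools of 66 to 629 cells, with an SD over sublibraries of 1.15 for the first. No member was called in the other comparisons of monocyte-like cells, where 4.95% and 9.6% of tested genes were called on days 1 and 7 with vehicle over control and 0.465% on day 1 between the arms. In nonclassical monocyte-like cells Ciita was lower with entospletinib on day 14 (305 to 120 CPM, relative log2 ratio −1.40, 1.65% of genes called). The same gene was 208 CPM in control and 125 CPM on day 1 with vehicle there, a relative log2 ratio of −0.95 that had the same sign in all 8 sublibraries but missed the size limit. No other member was called there, with 1.96%, 0.846% and 0.459% of genes called for vehicle over control on days 1, 7 and 14 and 0.273% and 0.753% between the arms on days 1 and 7.

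Entospletinib was compared with vehicle at each day in macrophage-like cells. On day 1 no member was called, and the call rule took 0.69% of 3625 tested genes. Ciita, at 131 against 73.2 CPM, was 1.79-fold higher with entospletinib (log2 ratio 0.84, 95% counting interval 0.69 to 1.00), and its relative log2 ratio of 0.96 was exceeded by 14 of the 3625 tested genes. All 8 sublibraries had it higher, from 0.49 to 1.30, so that only the size limit kept it from the call, and it passed with predicted doublets removed (1.01). The value was smaller under other settings: with an equal cluster mix it was 0.45, by single-cell gating 0.59 and after thinning 0.72. By cluster, Ciita was 214 against 113 CPM in cluster 0, where it was called (relative log2 ratio 1.08, 0.669% of genes called), and 84.1 against 63.7 CPM in cluster 9. In cluster 11 it was 177 against 74.8 CPM, from 36 and 60 counts, with 6 of 8 sublibraries higher. In cluster 4 it was 196 against 269 CPM, the other way round, with 4 of 8 sublibraries lower.

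The structural genes showed smaller gaps on day 1. H2-Ab1 was 718 against 544 CPM (relative log2 ratio 0.51), H2-DMb1 74.1 against 59.2 CPM (0.44) and H2-Eb1 858 against 690 CPM (0.43), entospletinib first. H2-Aa (0.26), Cd74 (0.16) and H2-DMa (0.12) were closer still. The core was at 0.26, and at 0.42 by single-cell gating. Of the 7 members 6 were thus higher with entospletinib in all 8 sublibraries, none by as much as the limit, and H2-DMa was higher in 4 of 8. Both day 1 pools lay well below control for Ciita, whose highest sublibrary with entospletinib was 162 CPM against a lowest of 703 CPM in control.

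On day 7 the core was 9837 ± 400 CPM with entospletinib and 6494 ± 381 CPM with vehicle, 1.51-fold apart. The median gene was 0.33 higher on the log2 scale in this comparison, however, so the relative log2 ratio of the core was 0.27 (0.44 by single-cell gating). The cDC1 markers of the class, 1783 against 1116 CPM, were apart in the same direction. Cd74 had the largest relative ratio, 0.40, while H2-Aa (0.02), H2-Eb1 (0.09), Ciita (0.15) and H2-Ab1 (0.17) were nearer 0. No member was called (1.79% of 3188 tested genes). On day 14 none was called either (2.36% of 3349 tested genes), and the core was 8133 ± 221 CPM with entospletinib against 8584 ± 231 CPM with vehicle, a relative log2 ratio of −0.15 (−0.30 with TMM scaling, −0.050 with an equal cluster mix). H2-DMb1 stood out from the other members that day, at 215 against 138 CPM (relative log2 ratio 0.57). It was also higher in B cell-like (0.68), cDC2-like (0.24) and cDC1-like cells (0.25), but lower in monocyte-like cells (−1.33, from 6 counts with entospletinib). The entospletinib day 14 pool had the lowest depth, and reads of H2-DMb1 can be shared with H2-DMb2.

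The cDC2-like cells showed a like course between the arms. Their core was 15664 ± 1319 CPM with entospletinib and 15106 ± 835 CPM with vehicle on day 1, and 14781 ± 775 against 9475 ± 470 CPM on day 7. On day 14 it was 10727 ± 694 against 11688 ± 376 CPM. The relative log2 ratios were 0.23, 0.34 and −0.21 (the last −0.41 with TMM scaling and −0.32 by single-cell gating), and no member was called on any day (0.631%, 1.48% and 1.25% of tested genes). The comparisons of vehicle with control and of entospletinib with vehicle share the vehicle pools.

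The share of all class II core counts held by each class was also counted, since the day 1 suspensions held other cells. Macrophage-like cells held 61.8% of the core counts in control and 25.5% on day 1 with vehicle, where they made up 37.0% and 10.2% of the cells. With entospletinib on day 1 they held 39.6% of the core counts and made up 23.6% of the cells. cDC2-like cells held 15.2% in control and 25.4% and 29.6% in the day 1 pools, from 5.17%, 2.43% and 4.01% of the cells. Monocyte-like cells, 21.6% of the vehicle day 1 cells, held 21.4% of its core counts. Over all cells the core was 4892 CPM in control, 2275 CPM on day 1 with vehicle and 2993 CPM with entospletinib, and Ciita was 417, 98.6 and 133 CPM. By day 14 macrophage-like cells again held 53.7% of the core counts with vehicle and 64.1% with entospletinib. These shares describe what passed the sort, which is only a portion of the kidney.

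**Figure D5:**
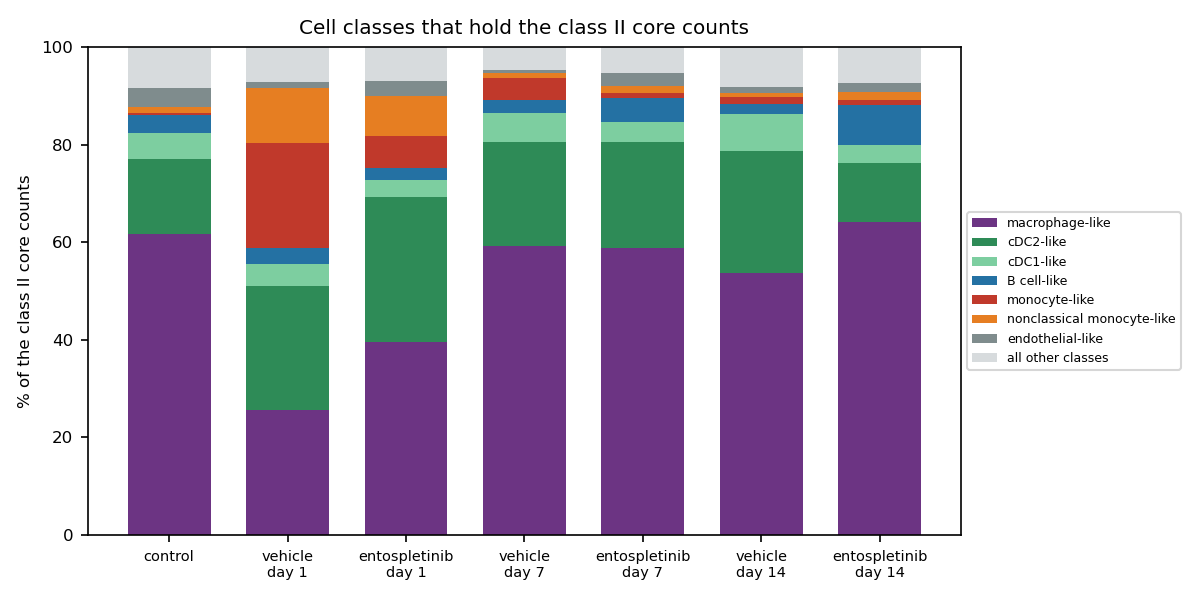
Share of the class II core counts held by each cell class in the 7 conditions, as stacked bars that sum to 100%. The macrophage-like share is 61.8% in control and 25.5% on day 1 with vehicle, where monocyte-like cells hold 21.4%.

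The remaining class II chains were all under the level needed for testing in macrophage-like cells (0 of 5 tested in each comparison). They marked other cells. H2-Ob, a chain of H2-DO that modulates H2-DM, had 221 CPM in B cell-like, 91.3 CPM in cDC1-like and 8.6 CPM in macrophage-like cells over all conditions. H2-DMb2 had 183 CPM in B cell-like and 78.4 CPM in cDC2-like cells, and H2-Oa at most 15.7 CPM, in cDC2-like cells. H2-Eb2 was highest in Ccr7 dendritic cell-like cells (137 CPM), above B cell-like cells (49.4 CPM).

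Genes that act with the members were counted in macrophage-like cells from fixed lists, against 12.4%, 4.3% and 5.2% of all tested genes called for vehicle over control on days 1, 7 and 14. Of 7 factors of the class II promoter, among them the RFX and NF-Y subunits, 2 or 3 reached the tested level in each comparison and none was called. Of 7 genes of class II antigen processing, 5 were tested on day 1 with vehicle over control. The endosomal protease Ctsb rose (612 to 1620 CPM, relative log2 ratio 1.25). Marchf1, a ubiquitin ligase that removes class II from the surface, fell (529 to 274 CPM, −1.10). Ctsd, another such protease, was at 43.7 CPM in control and 203 CPM on day 1 (2.06). It reached the tested level of 50 CPM against control only through the vehicle pools, so its calls against control carry no weight. Ifi30, the lysosomal thiol reductase, was called as higher than control on day 7 (1.51) and day 14 (1.32), where Ctsd was at 1.98 and 1.82. With entospletinib on day 7 Ctsd was lower than with vehicle (140 to 83.6 CPM, −1.07), where 1.79% of tested genes were called, and no other gene of the list was called between the arms. On day 1 Ctsb was thus called as higher while the class II chains fell.

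Interferon gamma is the classical inducer of Ciita in macrophages. Its gene, Ifng, was found in NK cell-like (86.6 CPM) and T cell-like cells (38.9 CPM) and at 0.2 CPM in macrophage-like cells. Of 9 class I presentation genes, 7 or 8 were tested and none was called on any day. Their median relative log2 ratio, vehicle over control, was −0.26 on day 1, −0.20 on day 7 and −0.13 on day 14, and for entospletinib over vehicle it was 0.20, 0.10 and 0.48, where the median of all tested genes is 0 by construction. In cDC2-like cells the list genes called were Ifi30 (1.02) and Marchf1 (−1.02) on day 1 and Jak2 on days 7 (1.16) and 14 (1.52), vehicle over control, where 7.25%, 4.81% and 4.69% of all tested genes were called.

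The genes most like the class II core in pattern were sought over 103 units, each a class in a condition with at least 50 cells. By Pearson's r of log2(CPM + 10) among 9311 genes, Cd74 (1.00) and H2-Aa, H2-Ab1 and H2-Eb1 (0.99 each) came first, as genes that are summed in the core. Of the members outside the sum, Ciita was at 0.95, H2-DMb1 at 0.92 and H2-DMa at 0.87, the last at rank 11. The 10 nearest other genes were Cd83 (0.89), Fgd2 (0.88), Ly86 (0.88), Prcp (0.87), Gm20513 (0.86), Rtn1 (0.85), Plekho1 (0.84), Zfp385a (0.84), Ctss (0.84) and Arhgap22 (0.84). Units of the same class share cells of a type and units of the same condition share mice and depth, so r is a description. Gm20513 overlaps the start of H2-Eb1 on the opposite strand, and their reads cannot be told apart if strand was not used. In macrophage-like cells of control and of vehicle day 1, between which the median gene was 0.15 higher on the log2 scale on day 1, the levels of these genes did not all go one way. They were 41.1 and 10.9 CPM for Gm20513, 653 and 274 CPM for Ly86, 206 and 103 CPM for Prcp, 237 and 137 CPM for Fgd2, 79.2 and 54.2 CPM for Zfp385a, 408 and 293 CPM for Rtn1, and 1247 and 1016 CPM for Arhgap22. Ctss (787 and 826 CPM) and Plekho1 (162 and 187 CPM) were nearly level, and Cd83, a marker of activation, went from 702 to 1421 CPM.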

How the data were processed

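Cells were pooled from 3 mice in each of 7 conditions, barcoded in 48 first-round wells that each held a single condition, and divided over 8 sublibraries. The authors processed the reads with the Parse pipeline (version 1.1) on mm10, and the release of the annotation is not given in the sources used here. The deposited matrix held raw counts of transcripts, which the authors had not normalized. The condition of each cell came from the deposited cell table, whose totals equalled the matrix for all 120281 barcodes. The 8 deposited samples each held cells of all conditions and were not compared.

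Cells were kept by the limits of the study's methods (over 300 genes, under 20000 counts, mitochondrial share under 25% and ribosomal protein gene share under 1.5%). They were clustered with scanpy 1.11.5 and leidenalg 0.10.2 on Python 3.11.15 without the members and their lists, and clusters were named from marker genes. Doublets were predicted by simulation within each sublibrary and kept. The counts of a class in a condition were summed and scaled to CPM, and the log2 ratio of each gene was taken relative to the median over the tested genes, whose mean in both pools reached 50 CPM. A gene was called at a relative log2 ratio of at least 1 in size with the same sign in 8 of 8 sublibraries. Thinning drew 500 counts from each cell. The calling step was run on simulated counts with known changes, drawn with counting error only. They held no spread between sublibraries or mice, so they cannot show how the rule behaves on single pools. TMM factors came from edgeR 4.0.16 on R 4.3.3. The genes named were the 7 members, list genes that were called, and the 10 genes nearest the core by correlation. Any other gene was chosen after its values were seen. The counts of the interferon gamma pathway list are not reported here. The members and the lists were chosen with earlier results of these data known. Alternatives covered doublets, cell limits, gating, scaling, thinning, cluster mix and leaving out each sublibrary.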

Additional observations from a re-analysis of the deposited data

Results flagged for a closer look

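With 56 groups of 8 sublibraries examined for a value far from the rest, 3 stood out, and chance would give about 1 in 20. In macrophage-like cells these were H2-Ab1 in a sublibrary of the vehicle day 1 pool (664 CPM against a pool value of 544 CPM), H2-DMa in a sublibrary of the same pool (36.6 against 52.4 CPM), and Ciita in a sublibrary of the vehicle day 7 pool (457 against 522 CPM). All 3 are technical portions of a single pool.

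The class II core had opposite signs in all 8 sublibraries in several pairs of classes or days, and none of these differences was tested. On day 1 with vehicle over control its relative log2 ratio was 0.17 in cDC2-like and −1.11 in macrophage-like cells. With entospletinib over vehicle on day 1 it was −0.34 in nonclassical monocyte-like and 0.26 in macrophage-like cells. In macrophage-like cells the same ratio was 0.26 on day 1 and 0.27 on day 7 but −0.15 on day 14, and in cDC2-like cells it was 0.34 on day 7 and −0.21 on day 14. The entospletinib day 14 pool is the one with the lowest depth, a median of 863 counts per macrophage-like cell. With each cell thinned to 500 counts the day 14 ratios were −0.14 in macrophage-like and −0.19 in cDC2-like cells.

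Barcodes that failed the quality limits, which enter no comparison above, also held class II counts. Their core level was 3702 CPM in the vehicle day 14 pool, 2836 CPM in the entospletinib day 1 pool and 1991 CPM in the entospletinib day 14 pool, against 1156 CPM in control, whose highest sublibrary was at 1437 CPM. In the other pools it was 1048 CPM (vehicle day 1), 1497 CPM (vehicle day 7) and 1631 CPM (entospletinib day 7), each with sublibraries that overlapped those of control.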

How the results depend on the processing

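No paired analysis was possible because each condition was a single pool and the deposited samples each held every condition. The count of members called on day 1, vehicle over control, was 5 or 6 under each alternative, and leaving out a sublibrary changed the direction of the core in neither macrophage-like nor cDC2-like cells (96 of 96 values). Depth limits H2-DMa, H2-DMb1 and all members in classes of few cells. An equal cluster mix gave no value for B cell-like cells on day 7.

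The relative log2 ratio of the core in macrophage-like cells moved by more than its technical spread as follows. For vehicle over control, gating each cell by its own markers gave −1.29 on day 1 and −0.35 on day 7, and an equal cluster mix gave −1.20, −0.35 and −0.23 on days 1, 7 and 14, against −1.11, −0.22 and −0.02. For entospletinib over vehicle, gating gave 0.42 on day 1 and 0.44 on day 7 against 0.26 and 0.27, and an equal cluster mix gave 0.36 on day 7 and −0.050 on day 14 against 0.27 and −0.15. TMM scaling gave −0.30 on day 14. In cDC2-like cells gating gave 0.27 on day 1 for vehicle over control against 0.17, and −0.32 on day 14 for entospletinib over vehicle against −0.21, where TMM gave −0.41. TMM gave 0.11 against 0.04 for vehicle over control on day 14. The count of members called between the arms on day 1 was 0, and 1 (Ciita) with predicted doublets removed, and it ranged from 0 to 1 when a sublibrary was left out. In endothelial-like cells the core ratio on day 14, entospletinib over vehicle, reversed from −1.83 to 0.62 with predicted doublets removed. The cause was not tested in any of these. Removing barcodes whose well combination occurs in more than 1 sublibrary, an alternative chosen after seeing the data, kept all 42 member ratios within their technical spread.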
